A study of Mus musculus with 6 samples.

Results

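The genes described here are 33 genes of the endoplasmic reticulum (ER) stress and unfolded protein response, of 37074 genes on the array. They were taken from a list of gene names and not from their signals, though earlier results of these data were known when the list was made. Each was found through the RefSeq name of its probe. Liver RNA of male L1-Tg mice was compared with that of male WT littermates on 3 one-color Cy3 arrays per genotype, each array holding pooled RNA of 2 or 3 mice. L1-Tg mice were hemizygous for human NPC1L1 under the APOE promoter, which drives expression in hepatocytes. Both genotypes had a C57BL/6J background after at least 8 generations of backcrossing, were 6 to 12 weeks old and ate the control-fat diet (CFD). The comparison therefore asks how this stress response stood in transgenic liver before any high-fat diet. The line is a single transgenic line, and the mouse Npc1l1 probe is no check of the human transgene: it was well above background in 1 of 3 L1-Tg pools and 2 of 3 WT pools.

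The unfolded protein response adjusts the folding capacity of the ER to its load, which is high in hepatocytes because they secrete most plasma proteins. Unfolded proteins in the ER lumen are sensed by IRE1 (Ern1), ATF6 (Atf6) and PERK (Eif2ak3). IRE1 splices the Xbp1 transcript, ATF6 is cleaved in the Golgi to a transcription factor, and PERK phosphorylates eIF2α, which lowers general translation and raises that of Atf4. In liver, CREBH (Creb3l3) is cut by the same proteases as ATF6 and acts on lipid and acute phase genes. The array measures total transcript, so spliced and unspliced Xbp1 cannot be told apart, and neither can cleavage of ATF6 or phosphorylation of PERK be seen.

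Sequence upstream of the start sites is shown first, because members of the IRE1-XBP1 and ATF6 branches share a motif there. The genes were not chosen by sequence, but the branches were written by hand from textbook roles. A motif shared by known targets is therefore no independent result. RefSeq windows of 300 bases (250 before and 50 after the start site, GRCm38.p6) were held for 29 of the 33 members, and 4 (Derl1, Atf6, Hyou1 and Manf) had none. Both strands were searched. The ER stress response element (ERSE) is spelled CCAAT, then 9 bases of any kind, then CCACG. It was present in 9 of these 29 members (31.0%, counted by gene) and in 0.119% of all 32851 windows (counted by window). The 9 were Derl3, Dnajc3 and Syvn1 of the IRE1-XBP1 branch and Hspa5, Hsp90b1, Calr, Canx, Pdia6 and Creld2 of the ATF6 branch. No member of the PERK-ATF4 branch held one. ERSE-II (ATTGG, 1 base of any kind, CCACG) was in 6.90% of members, namely Herpud1 and Dnajb11, against 0.0365% of windows, and no window of a member held both forms. The cyclic AMP response element TGACGTCA was found in Ppp1r15a (1.79% of all windows), and TGATGAAAC, a nutrient-sensing element of the asparagine synthetase promoter, was found in Asns (0.247% of all windows). The letters TGACGTGG and TGATGNAAT were in 0 of the 29 members, against 0.676% and 0.965% of all windows. A match describes the letters and is neither a binding site nor a cause. The stretches below run 5′ to 3′ on the strand of the gene, with the motif in capitals. Derl3 and Asns are shown because their signals differed most between the genotypes, Hspa5, Hsp90b1, Calr, Pdia6 and Herpud1 as carriers of ERSE or ERSE-II whose signals overlapped between them, and Ppp1r15a for its cyclic AMP element.
Derl3 (ERSE on the opposite strand, chr10:75893222-75893280, plus strand): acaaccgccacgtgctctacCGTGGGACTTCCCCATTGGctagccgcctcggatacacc
Asns (TGATGAAAC, chr6:7693210-7693252, minus strand): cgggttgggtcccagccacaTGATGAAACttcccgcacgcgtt
Hspa5 (ERSE, chr2:34772005-34772063, plus strand): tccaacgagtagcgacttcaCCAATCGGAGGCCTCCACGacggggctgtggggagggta
Hsp90b1 (the farther of its 2 ERSE, chr10:86705618-86705676, minus strand): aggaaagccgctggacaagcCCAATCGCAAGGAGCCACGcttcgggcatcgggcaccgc
Calr (ERSE on the opposite strand, chr8:84847055-84847113, minus strand): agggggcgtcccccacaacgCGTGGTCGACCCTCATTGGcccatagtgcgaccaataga
Pdia6 (ERSE, chr12:17266471-17266529, plus strand): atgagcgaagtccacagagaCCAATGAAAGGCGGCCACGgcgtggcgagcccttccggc
Herpud1 (ERSE-II, chr8:94386357-94386407, plus strand): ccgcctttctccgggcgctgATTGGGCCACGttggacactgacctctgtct
Ppp1r15a (TGACGTCA, chr7:45526269-45526300, minus strand): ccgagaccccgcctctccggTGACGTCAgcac

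Values below are log2 of the processed signal minus the log2 of the array's 75th percentile, so that 0 is the level of that percentile, and differences are L1-Tg minus WT. A scaled signal is the same value on the linear scale, with the percentile at 1. The 75th percentile lay between an intensity of 296 and 378, and 53.1% (WT 1) to 59.2% (L1-Tg 1) of spots were well above background. The 6 arrays lay on 1 slide with all WT arrays in row 1 and all L1-Tg arrays in row 2, so that row and genotype cannot be told apart. All 8 hepatocyte markers were well above background in every pool, with summed scaled signals of 4643 to 5839 in L1-Tg and 5209 to 5680 in WT liver. Pool L1-Tg 2 stood apart by markers of pancreatic acinar cells. Their summed scaled signal was 50.04 there and 2.58 to 3.64 in the other 5 pools. With 3 pools against 3, an exact permutation test of a single gene cannot give a p below 0.1. Precision is limited by how few arrays there are.

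All 33 members were well above background on all 6 arrays and were tested. The signals of 2 of them, Asns and Derl3, were several-fold higher in L1-Tg liver, whereas the sensors, the ER chaperones and the central transcription factors Xbp1 and Atf4 had overlapping values. In limma, 0 of the 33 passed a Benjamini-Hochberg adjusted p of 0.05, where 0.13% of the 22323 genes tested did, and without moderated variances 0 passed as well. At an unadjusted p under 0.05 there were 3 members (Asns, Derl3 and Atf3), or 9.09%, beside 8.87% of all genes, and without moderated variances there were 2. The values of the 2 genotypes did not overlap for 5 members, or 15.2%, beside 15.9% of all genes. Of these, Asns, Derl3 and Atf3 were higher in L1-Tg liver, as 7.21% of all genes were, and Chac1 and Ppp1r15a lower, as 8.7% were. The same 5 members passed the difference index of the methods, which is the difference of the mean signals over the sum of the standard deviations, with a modulus above 0.7. Shares of all genes for that index are over 37041 genes, here and below, and include genes not tested. It passed 30.3% of these, 8.61% as higher and 21.7% as lower, and 26.5% of the genes tested. These shares of members were near or under those of all genes. With other scalings the index passed 6 to 8 members: 24.2% beside 22.1% of all genes with quantile normalization and beside 20.7% with array-median scaling.

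The log2 difference was above 0 for 21 members and below 0 for 12, beside 42.9% and 57.1% of all genes, and 25 to 27 members were above 0 under the other scalings of the arrays. The median over the members was 0.08 against -0.03 for all genes. Precision was better than a 2-fold difference for most members: the 95% interval lay within 2-fold either way for 27 of them. It reached beyond 2-fold for Asns, Derl3, Atf3, Chac1, Sdf2l1 and Pdia6.

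**Figure D1:**
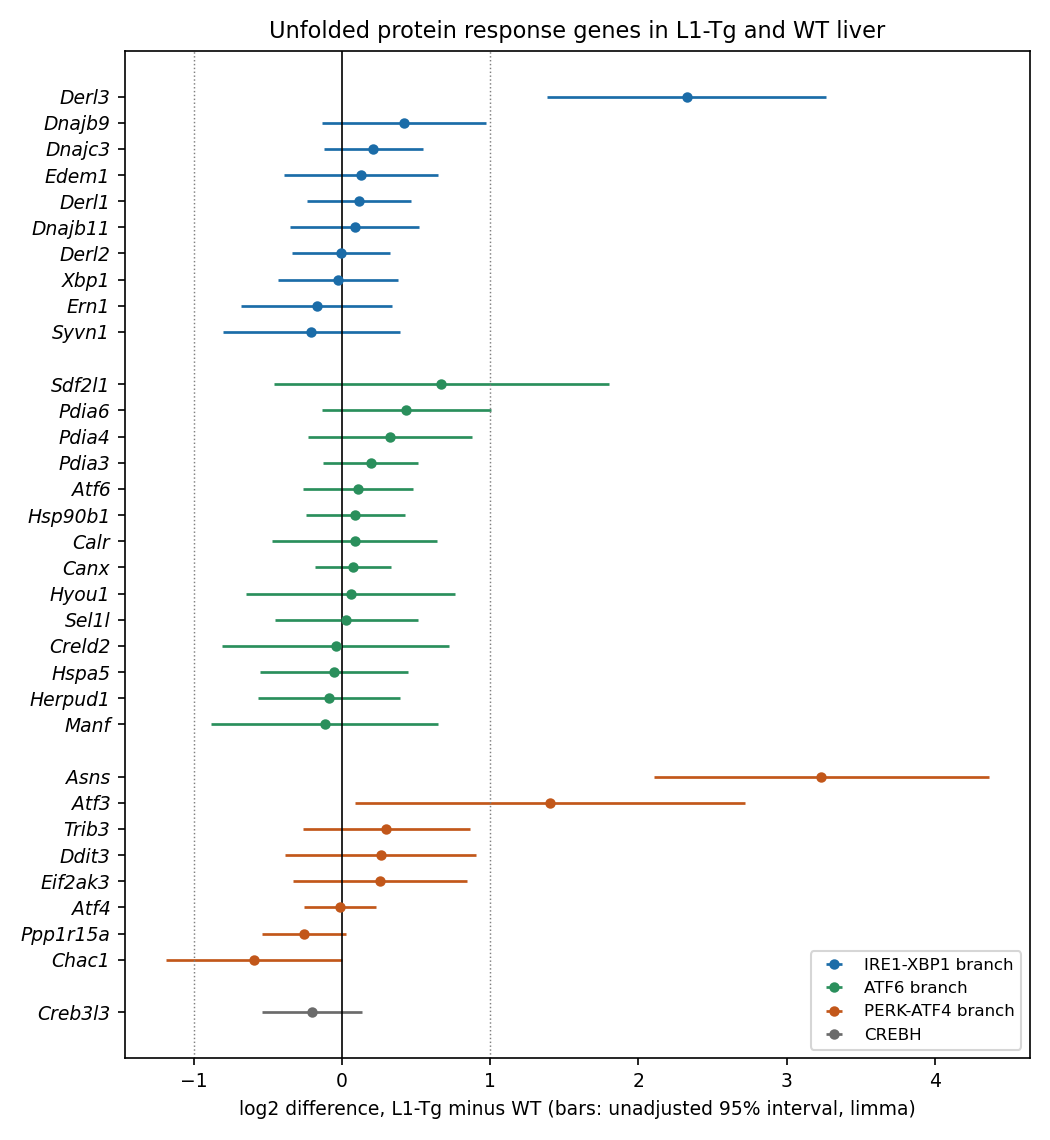
Log2 difference (L1-Tg minus WT, x axis) of each of the 33 genes, grouped by branch, with unadjusted 95% intervals from limma; dotted lines mark a 2-fold difference. The intervals of Asns, Derl3 and Atf3 lie above 0 and those of the other 30 genes include 0.

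The PERK-ATF4 branch held the widest range of differences, from -0.59 for Chac1 to 3.23 for Asns, with a median of 0.26 over its 8 genes. Its sensor and its transcription factor did not differ beyond the spread of the pools. Eif2ak3, the kinase itself, had values of 0.71, 0.18 and 0.81 in the L1-Tg pools and 0.73, 0.03 and 0.18 in the WT pools. The groups overlapped throughout, and the difference was 0.25 (95% interval -0.33 to 0.84). Atf4, whose product activates amino acid and redox genes, gave 5.88, 5.96 and 5.78 in L1-Tg and 5.98, 5.79 and 5.88 in WT liver. Its standard error of 0.10 was the smallest of all members, with a difference of -0.01 (interval -0.25 to 0.23).

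Asns, the enzyme that makes asparagine and a classic ATF4 target, showed the largest difference of all members. Its values were 2.41, 3.39 and 4.24 in the L1-Tg pools and 0.46, -0.36 and 0.24 in the WT pools. Each L1-Tg pool lay far above every WT pool. The mean was 3.35 ± 0.92 (SD, n = 3 pools) in L1-Tg and 0.11 ± 0.42 in WT liver, a difference of 3.23 (standard error 0.47) or 9.41-fold. The adjusted p in limma was 0.160, over a range of 0.0315 to 0.488 across the alternatives, and it passed the threshold only where the arrays were not scaled. By size the difference ranked 16 among the 22323 genes tested.

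Chac1 and Ppp1r15a, also targets of ATF4, were lower in the L1-Tg pools. Chac1, which degrades glutathione, was 1.35, 1.36 and 1.20 in L1-Tg and 2.39, 1.92 and 1.39 in WT liver. All L1-Tg values were below all WT values, although L1-Tg 2 and WT 3 nearly touched. On average the difference came to -0.59 (standard error 0.25; adjusted p in limma 0.561), and to -0.35 without WT replicate 1. Ppp1r15a (GADD34), the phosphatase subunit that reverses eIF2α phosphorylation, was 2.17, 2.13 and 1.87 in L1-Tg and 2.23, 2.28 and 2.43 in WT liver. It too was lower in each L1-Tg pool, by 0.26 on average (standard error 0.12, limma adjusted p = 0.577). With array-median scaling or the deposited matrix, neither Chac1 nor Ppp1r15a remained without overlap.

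Ddit3 (CHOP), a transcription factor that promotes cell death under prolonged ER stress, was -0.21, 0.42 and -0.57 in L1-Tg and -0.22, -0.66 and -0.26 in WT liver. The pools overlapped, with L1-Tg 2 the highest, and the difference was 0.26 (interval -0.38 to 0.91). Trib3, a pseudokinase induced by ATF4 and CHOP, had a difference of 0.30 (interval -0.27 to 0.86). Its highest pool was also L1-Tg 2, at 4.42. Without that pool the median of the branch was 0.04 in place of 0.26.

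Atf3, a stress-inducible repressor that responds to ATF4 and to many other signals, was 0.38, -1.40 and -1.59 in L1-Tg and -2.36, -2.68 and -1.77 in WT liver. Pool L1-Tg 1 was far above the others, and the remaining L1-Tg pools lay just above the highest WT pool. The difference was 1.40 (standard error 0.55, unadjusted p = 0.040, adjusted p = 0.548, limma) and 0.78 without L1-Tg replicate 1. Of 12 immediate early genes, 5 were highest in the same pool and 7 in another. Of the 5, Jun was 3.66 in L1-Tg 1 and 1.41 to 2.54 in the other pools, and Klf6 was 2.64 there and 0.90 to 1.78 elsewhere. The remaining 10 immediate early genes had a summed scaled signal of 8.12 in L1-Tg 1 and 4.94 to 10.4 in the other pools. The part of these genes in the Atf3 value was not tested.

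**Figure D2:**
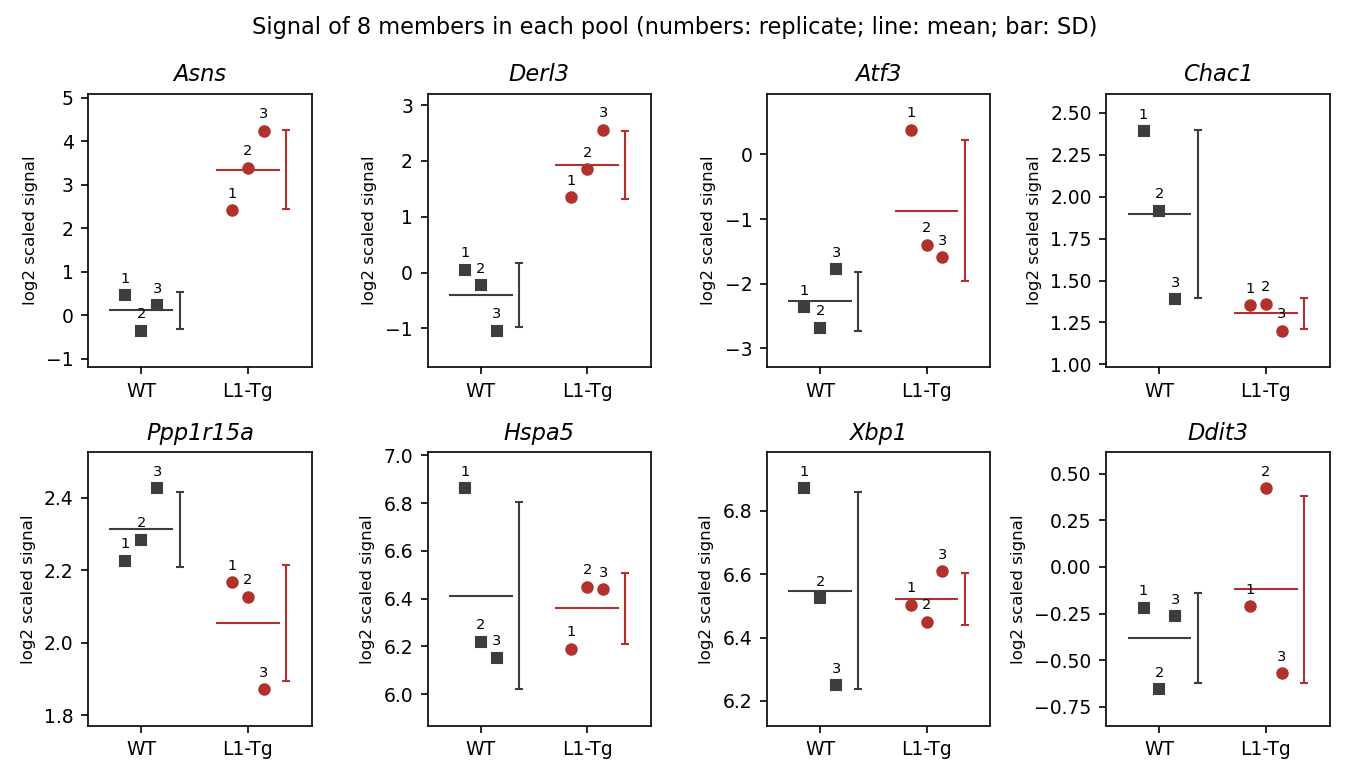
Log2 scaled signal (y axis, own scale in each panel) of 8 members in each pool; circles are L1-Tg pools, squares WT pools, numbers the replicate, horizontal lines the mean and vertical bars the SD (n = 3 pools). Asns and Derl3 are separated by more than their spread, Atf3 rests largely on L1-Tg 1, and Hspa5, Xbp1 and Ddit3 overlap.

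In the IRE1-XBP1 branch only Derl3 was separated between the genotypes by the probe that represented each gene (a further Dnajb11 probe was separated too), and the median over its 10 genes was 0.10. Derl3 (Derlin-3) belongs to the ER membrane complex that moves misfolded proteins to the cytosol for degradation. Its values were 1.35, 1.85 and 2.56 in the L1-Tg pools and 0.05, -0.23 and -1.05 in the WT pools. All L1-Tg pools were above all WT pools, in the same order of L1-Tg pools as for Asns. Many other members had this order too, among them Ern1, Hsp90b1, Calr, Pdia6 and Creld2. The means of Derl3 were 1.92 ± 0.61 (SD, n = 3 pools) and -0.41 ± 0.57, 2.33 apart (standard error 0.39) or 5.01-fold. Its adjusted p in limma was 0.204, with 0.0593 to 0.579 across the alternatives. By size its difference ranked 41 among all genes tested. The paralogs Derl1 and Derl2, which serve the same complex, differed by 0.12 (interval -0.24 to 0.47) and -0.01 (interval -0.33 to 0.32).

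Upstream in this branch, Ern1 was 0.52, 0.76 and 0.94 in L1-Tg and 1.26, 0.94 and 0.53 in WT liver. L1-Tg 1 and WT 3 were the lowest and nearly equal, the other values overlapped, and the difference was -0.17 (interval -0.68 to 0.34). Total Xbp1 was 6.50, 6.45 and 6.61 in L1-Tg and 6.87, 6.52 and 6.25 in WT liver. The WT pools spanned more than the L1-Tg pools on both sides, and the difference was -0.03 (interval -0.43 to 0.38). Of the co-chaperones that XBP1 drives, Dnajb9 (ERdj4) differed by 0.42 (interval -0.14 to 0.97) and Dnajc3 (p58IPK) by 0.21 (interval -0.12 to 0.55). Edem1, a lectin that directs glycoproteins to degradation, differed by 0.13, and Syvn1 (HRD1), the ubiquitin ligase of the same route, by -0.21.

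Dnajb11 (ERdj3), a co-chaperone of BiP, was the member whose probes disagreed. The brighter probe gave 0.08 (interval -0.35 to 0.52). The other probe was 1.01, 1.24 and 0.52 in L1-Tg and 1.58, 1.71 and 1.91 in WT liver, with no overlap and a mean difference of -0.81 (standard error 0.20; in limma the adjusted p was 0.422 over 29423 probes). Both probes are named for this gene through different RefSeq transcripts, so its direction is unsettled. The other 5 members with several probes were Atf4, Derl1, Derl2, Dnajb9 and Pdia6. Their probes were farthest apart for Dnajb9, at 0.42 and 0.22, and the dimmer Atf4 probe was lower without overlap, by 0.17.

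Asns and Derl3 were set beside the acinar markers of L1-Tg 2, since protein-secreting cells such as those of the pancreas are rich in ER. Of the 8 markers, Cpb1, Pnlip and Prss2 were well above background only in L1-Tg 2, and Cpa1 in 2 L1-Tg pools and 0 WT pools. Of the 4 that were tested, Cela2a and Cela1 were above all WT pools in each L1-Tg pool, by 3.29 and 2.10 on average (limma adjusted p = 0.441 and 0.576). For Cela1 only 1 WT array gave a signal clear of background. Its WT values of -4.00, -4.19 and -4.58 lay near the lowest signals told from background there (-3.98, -4.53 and -4.39). Cela1 entered the test through its L1-Tg signals, so its separation and its difference of 2.10 are not independent of the filter. The scaled signal of Cela2a was 0.220, 2.83 and 1.19 in L1-Tg 1, 2 and 3 and 0.0660 to 0.128 in WT pools. Asns and Derl3 were highest in L1-Tg 3, where the summed acinar signal was 3.64, and both were also above WT in L1-Tg 1, where it was 2.92. Ctrb1 made up most of that sum outside L1-Tg 2, and without it the sum was 0.775, 32.05 and 1.67 in L1-Tg and 0.565 to 0.735 in WT pools. Without L1-Tg replicate 2 the differences of Asns and Derl3 were 3.21 and 2.36. The part of acinar RNA in these values was not tested. In bulk liver RNA, fewer cells of a type and less RNA per cell cannot be told apart.

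**Figure D3:**
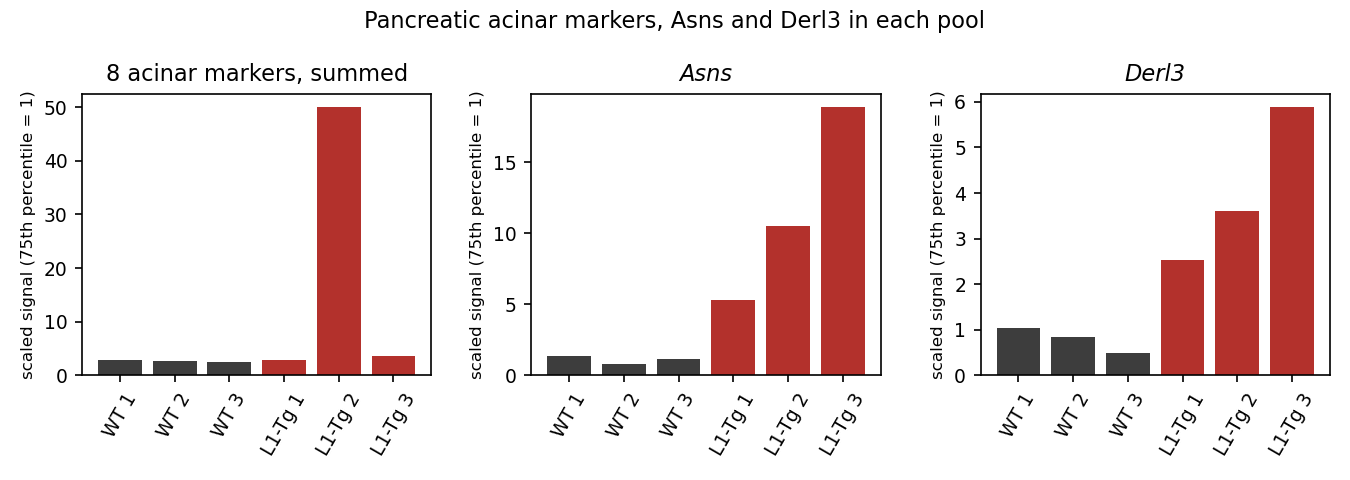
Scaled signal on a linear axis from 0 (75th percentile of the array = 1) in each pool for the sum of 8 pancreatic acinar markers, for Asns and for Derl3; dark bars are WT and red bars L1-Tg pools. The acinar sum is 50.04 in L1-Tg 2 and at most 3.64 elsewhere, whereas Asns and Derl3 are highest in L1-Tg 3.

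The ATF6 branch, which holds the ER chaperones, had a median difference of 0.08 over 14 genes. None of them was without overlap between genotypes or passed the index, and 12 had intervals within 2-fold. Atf6 was 0.31, 0.22 and 0.43 in L1-Tg and 0.49, -0.05 and 0.19 in WT liver. The L1-Tg pools lay inside the WT range, and the difference was 0.11 (interval -0.26 to 0.48). Hspa5 (BiP), the main ER chaperone and the usual readout of this response, was 6.19, 6.45 and 6.44 in L1-Tg and 6.86, 6.22 and 6.15 in WT liver. The highest pool was WT 1, and the difference was -0.05 (interval -0.55 to 0.45).

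Differences of the other chaperones and foldases were small against the spread of the pools. Hsp90b1 (GRP94) differed by 0.09, the nucleotide exchange factor Hyou1 by 0.06, and the lectin chaperones Calr and Canx by 0.08 each. Among the disulfide isomerases, Pdia3, Pdia4 and Pdia6 differed by 0.19, 0.32 and 0.43, the last with an interval of -0.13 to 1.00. Sdf2l1, which keeps misfolded proteins soluble with the help of ER co-chaperones, had the largest difference of the branch, 0.67, and the widest interval, -0.46 to 1.80. Its values were 0.94, 2.05 and 2.35 in L1-Tg and 1.89, 0.78 and 0.65 in WT liver, so that WT 1 lay between L1-Tg 1 and L1-Tg 2. The degradation factors Herpud1 and Sel1l differed by -0.09 and 0.03. Manf and Creld2, small secreted ER stress proteins, differed by -0.12 and -0.04.

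The printed ERSE stretches can be set against these values. The 9 members with an ERSE ranged from -0.21 to 2.33 with a median of 0.08, and without Derl3 the other 8 ranged from -0.21 to 0.43.

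Creb3l3, the liver-enriched CREBH, was 7.07, 7.22 and 6.95 in L1-Tg and 7.21, 7.53 and 7.12 in WT liver. L1-Tg 2 lay above WT 1 and WT 3, and the difference was -0.20 (interval -0.54 to 0.13, limma adjusted p = 0.663).

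Pools of 1 genotype differed among themselves in these genes more than in the median gene. The median standard deviation of the members was 0.21 among L1-Tg and 0.36 among WT pools, against 0.13 and 0.17 for all genes tested. Pool WT 1 was the highest WT pool for 29 of the 33 members, including all 10 of the IRE1-XBP1 branch and all 14 of the ATF6 branch. It exceeded the mean of WT 2 and WT 3 by 1.18 for Sdf2l1, 1.06 for Manf, 1.05 for Creld2, 0.90 for Hyou1 and 0.68 for Hspa5, whereas Dnajc3 and Canx exceeded it by 0.15 and 0.19. Pool L1-Tg 1 was the lowest L1-Tg pool for 23 members.

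The medians over the ATF6 branch, each relative to the WT mean, show these pools directly. They were -0.18, 0.19 and 0.22 in L1-Tg 1, 2 and 3 and 0.39, -0.21 and -0.20 in WT 1, 2 and 3. The IRE1-XBP1 branch gave -0.08, 0.20 and 0.20 in L1-Tg and 0.34, -0.04 and -0.19 in WT pools. The PERK-ATF4 branch did not share the pattern, with 0.10, 0.40 and 0.02 in L1-Tg and 0.13, -0.19 and 0.12 in WT pools. In each branch the L1-Tg and WT pools overlapped. The medians of all genes stayed between -0.05 and 0.03.

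**Figure D4:**
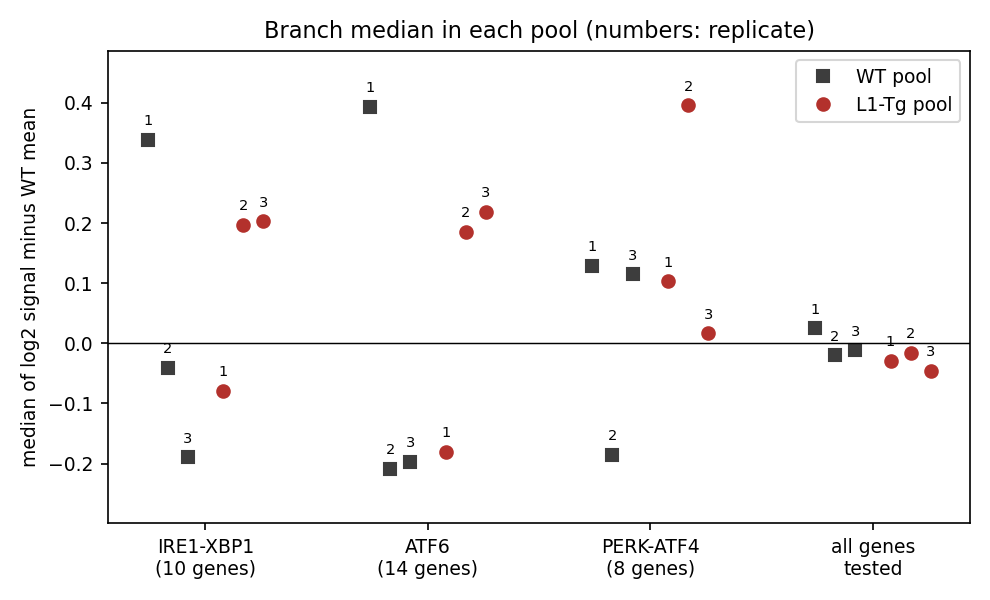
Median over the genes of a branch of the log2 signal minus the WT mean (y axis), in each pool; circles are L1-Tg and squares WT pools, with the replicate number above. WT 1 is the highest pool of the IRE1-XBP1 and ATF6 branches (0.34 and 0.39), L1-Tg 1 lies below 0 in both, and all genes tested stay near 0.

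The size of the differences in the chaperone branches depended on these pools. WT 1 was the highest WT pool for 29 members and L1-Tg 1 the lowest L1-Tg pool for 23. Leaving either out therefore raises the difference of those members by construction. Without WT replicate 1, 30 of the 33 members were above 0, all but Chac1, Ppp1r15a and Creb3l3, and the median was 0.24. The index then passed 22 members, beside 37.4% of all genes, and 11 were without overlap, beside 27.6% of all genes. The largest differences in the 2 chaperone branches apart from Derl3 were then 1.06 for Sdf2l1, 0.66 for Dnajb9 and 0.63 for Pdia6, and 0 members passed the adjusted limma threshold (4 at an unadjusted p under 0.05). Without L1-Tg replicate 1, 25 were above 0, 13 passed the index, beside 40.0% of all genes, and 10 were without overlap, beside 25.8% of all genes. Leaving out any other pool gave 17 to 19 members above 0. WT 1 also had the lowest summed Kupffer cell signal, 93.4, against 126 to 173 in the other pools, and the smallest share of spots well above background. The part of these in its chaperone values was not tested.

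**Figure D5:**
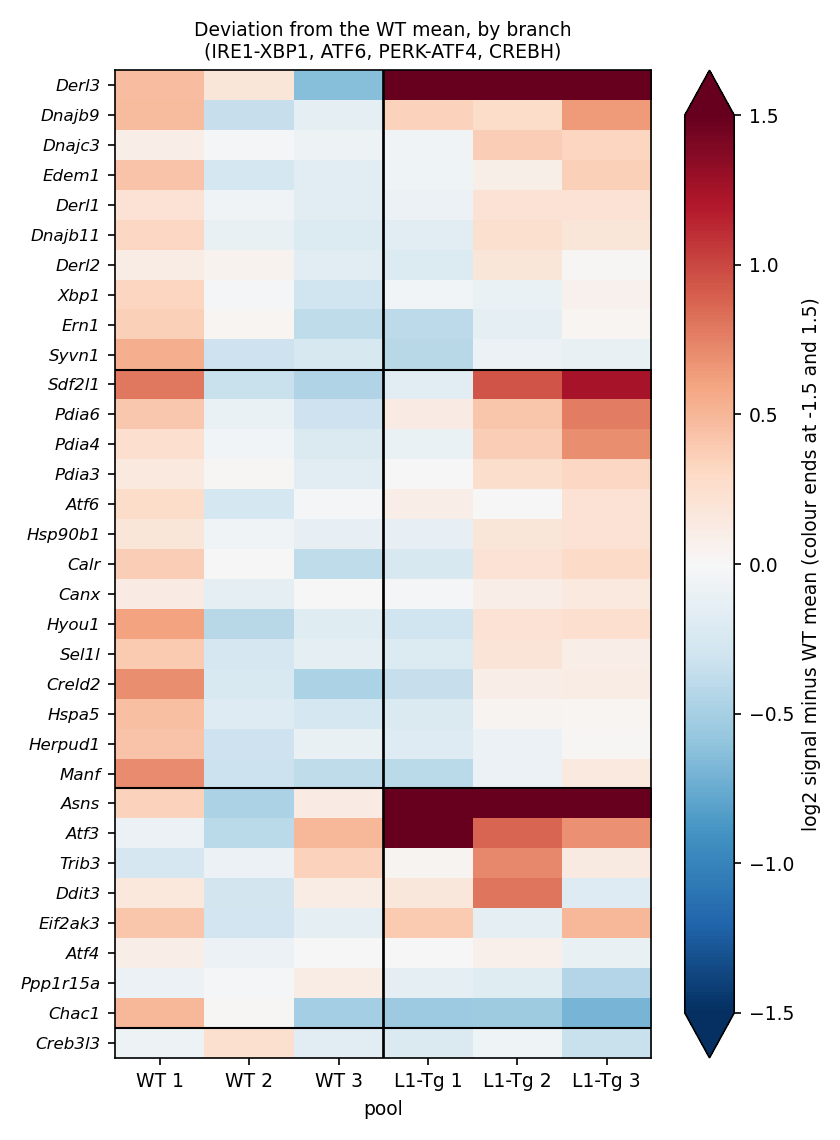
Log2 signal minus the WT mean for the 33 genes (rows, by branch) in the 6 pools (columns, WT left, L1-Tg right); red is above and blue below the WT mean, and colours end at 1.5 either way. The WT 1 column is red in most rows of the first 2 branches, and Derl3 and Asns are the rows that are dark red in all 3 L1-Tg pools.

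Beyond the members, 120 further genes of the ER and of the 3 branches were listed, of which 119 were on the array and 112 were tested. In limma 0 passed the adjusted threshold, with 4 higher and 1 lower at an unadjusted p under 0.05 (4.46%, beside 8.87% of all genes). Of the 112, 65 were above 0 and 47 below, and 9 were without overlap (8.04%, against the 15.9% of all genes above). The 3 genes with the smallest p of each list are named.

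Among 18 tested ATF4 targets and amino acid response genes, 11 were above 0. The stress protein gene Nupr1 differed by 1.25 (standard error 0.43, limma adjusted p = 0.518). Slc3a2, the heavy chain of amino acid transporters, differed by 0.74, and Phgdh, the first enzyme of serine synthesis, by 0.30. All 3 had an unadjusted p under 0.05 (16.7% of the list, beside 8.87% of all genes), and of the list only Phgdh was without overlap (5.56%, beside 15.9%). Psat1, the next enzyme of serine synthesis, was chosen after its values were seen: it was -2.77, -1.32 and -0.19 in L1-Tg and -2.38, -3.30 and -2.76 in WT liver. Its L1-Tg pools stood in the order found for Asns and Derl3, which many members shared, with L1-Tg 1 inside the WT range. On average they were 1.38 above WT (standard error 0.64, limma adjusted p = 0.577).

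Among 17 sensors and regulators, Eif2ak2 (PKR), the interferon-inducible eIF2α kinase that binds double-stranded RNA, was -0.23, -0.29 and 0.20 in L1-Tg and -0.84, -0.42 and -0.61 in WT liver. All L1-Tg pools were above all WT pools, by 0.52 on average (standard error 0.18, limma adjusted p = 0.515). Nck1 and Atf6b differed by 0.28 and 0.14. Of 14 genes of translocation and signal peptide processing, 12 were above 0, led by Ssr4 (0.28), Tram1 (0.30) and Sec63 (0.10), with 0 without overlap. Like the chaperones, this list had a high median in WT 1, 0.39.

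The other lists were evenly divided. For folding and disulfide formation 8 of 18 genes were above 0, with Fkbp14 at -0.32, Ganab at -0.27 and Ero1lb at 0.32. For ER-associated degradation 9 of 16 were above 0, and 3 of 16 were higher without overlap (18.8%, beside 7.21% of all genes). These were Vcp, the ATPase that extracts the substrates, by 0.17, Faf2 by 0.14 and Herpud2 by 0.07, while Erlec1 differed by -0.22. For ER-to-Golgi transport 6 of 12 were above 0, with Sec23a at -0.19, Sec31a at -0.18 and Tmed2 at 0.17. Substrates of IRE1-dependent RNA decay, which would be cut by an active IRE1, were above 0 in 3 of 6 genes. Bloc1s1, the best known of them, was lower without overlap by 0.17 (1 of 6 genes or 16.7%, beside 8.7% of all genes). Pdgfrb and Hgsnat differed by 0.17 and -0.08, and the smallest limma adjusted p of this list was 0.609.

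Apoptosis genes of this response were above 0 in 3 of 6 cases, with Tnfrsf10b (death receptor) at 0.23 without overlap, Bcl2 at -0.44 and Bax at 0.15. Of the 6, only Tnfrsf10b was higher without overlap (16.7%, beside 7.21% of all genes), and the smallest limma adjusted p was 0.589. Of 7 tested CREBH targets 3 were above 0. Apoa5, which lowers plasma triglycerides, was 3.84, 4.14 and 3.81 in L1-Tg and 4.18, 4.58 and 4.64 in WT liver, lower in every L1-Tg pool by 0.54 (standard error 0.16, limma adjusted p = 0.480). The acute phase genes Crp and Apcs differed by 0.23 and 0.63.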

How the data were processed

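Liver RNA of 3 WT and 3 L1-Tg pools was measured on one-color arrays, with groups taken from the labelled genotype. The authors processed the scans with Agilent Feature Extraction 10.10.1.1. The deposited processed signal is an intensity after background subtraction, not yet brought to a common scale. A deposited matrix holds the same intensities times 1 factor per array (2.46 to 2.98), whose basis is not given in the sources used here. Control spots were dropped, non-uniform spots (1 to 22 per array) were missing, and spots of a probe were averaged before the log2 signal minus the array's 75th percentile was taken. A gene was represented by its brightest probe. It was tested where every array of either group had that probe well above background (22323 of 37074 genes), with limma 3.58.1 in R 4.3.3 (lmFit, eBayes, two-sided, Benjamini-Hochberg over these genes, threshold 0.05). Intervals are unadjusted, and p-values measure the spread between pools. In a simulation with this spread, 57% of genes shifted by 1 on the log2 scale and 76% of those shifted by 2 passed, and 4 of 137 genes that passed were false. It drew independent noise for each gene and shifted 200 genes, whereas 29 genes passed in the data. Its rates need not hold for these arrays. Alternatives concerned scaling, background correction (normexp, offset 50), the deposited matrix, dim probes, probe choice, the replicate block, a t-test without moderated variances, the index threshold, branch membership and each array left out. Fitting every probe of a member on its own was added after seeing the data. The members and gene lists were chosen with earlier results of these data known. Every member is named, with each pool's value for the sensors, transcription factors, Hspa5 and members without overlap or with an unadjusted p under 0.05. Marker and context genes, and pool values beyond this rule, were chosen after their values were seen.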

Additional observations from a re-analysis of the deposited data

How the results depend on the processing

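The count of 0 members past the adjusted limma threshold held under all alternatives except without scaling, where Asns passed (1 member, log2 difference 3.29, adjusted p = 0.0315). The number past the index was 8 with quantile normalization, array-median scaling and the deposited matrix (24.2% of members, beside 22.1%, 20.7% and 29.2% of all genes), 2 at a modulus above 1 (Asns and Derl3), and 4 to 22 with 1 array left out. Members without overlap were 3 with array-median scaling and the deposited matrix and 5 to 11 with 1 array left out. The median of the PERK-ATF4 branch was 0.039 to 0.26 with 1 array left out, and that of the ATF6 branch -0.0054 to 0.26. Array-median scaling moved the median of all genes from -0.033 to 0.076, and members above 0 went from 21 to 27. Over all genes, 29 were called in the main test and 0 with the t-test without moderated variances (1839 at an unadjusted p under 0.05). That t-test is not the authors' rule for the arrays, which is the index. Calls numbered 10 without the filter on dim probes, 11 with the replicate block and 15 to 35 with 1 array left out.

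Differences near 0 changed sign under other settings. With quantile normalization the values were 0.058 for Xbp1, 0.075 for Derl2, 0.028 for Hspa5, 0.00076 for Herpud1, 0.014 for Creld2 and 0.068 for Atf4. With array-median scaling they were 0.082, 0.10, 0.056, 0.021, 0.065 and 0.095 for the same genes. Without scaling Xbp1 was 0.029, Derl2 0.050, Hspa5 0.0034, Creld2 0.012 and Atf4 0.042, and with the deposited matrix Xbp1 was 0.022, Derl2 0.044, Creld2 0.0060 and Atf4 0.036. With normexp Derl2 was 0.025 and Hyou1 -0.0099. With the mean of all probes Dnajb11 was -0.36 and Derl2 0.028, and other probes gave -0.81 for Dnajb11, -0.0052 for Derl1 and 0.036 and 0.054 for Derl2. With 1 array left out 16 members changed sign: Ern1 (-0.36 to 0.0064), Xbp1 (-0.18 to 0.13), Dnajb11 (-0.018 to 0.24), Edem1 (-0.0015 to 0.34), Derl2 (-0.098 to 0.096), Syvn1 (-0.36 to 0.069), Atf6 (-0.020 to 0.25), Hspa5 (-0.18 to 0.17), Hyou1 (-0.15 to 0.36), Calr (-0.10 to 0.27), Herpud1 (-0.24 to 0.12), Sel1l (-0.096 to 0.22), Manf (-0.31 to 0.23), Creld2 (-0.28 to 0.31), Atf4 (-0.060 to 0.035) and Ddit3 (-0.0100 to 0.49). The causes were not tested. The other 17 members, among them Asns, Derl3, Atf3, Chac1, Ppp1r15a and Creb3l3, kept their sign under these alternatives, except Derl1 with its other probe.

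The replicate numbers did not pair the pools: deviations of same-numbered pools correlated at -0.16, 0.11 and 0.019 across genes. With the replicate block 0 members were called and the smallest adjusted p among them was 0.237.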

Other observations

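A list of heat shock genes, whose products fold proteins outside the ER, was set beside the ER chaperones. All 9 that were tested were above 0, where 42.9% of all genes were. Hspa1a was -2.38, -2.31 and -1.64 in L1-Tg and -2.83, -3.09 and -3.38 in WT liver, 0.99 apart on average (standard error 0.24; limma adjusted p = 0.388). Hspb1 (0.76) and Hsp90aa1 (0.42) were likewise higher in every L1-Tg pool, and these 3 genes of 9 (33.3%) had no overlap between genotypes, where 7.21% of all genes were higher without overlap. None passed the adjusted threshold. This list was chosen after its values were seen, so its shares beside all genes describe it and test nothing. The median of this list in WT 1 was 0.11 above the WT mean, beside 0.39 for the ATF6 branch.

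Genes that follow feeding and the time of day were listed as well, also after their values were seen. Of 10 fasting response genes 8 were below 0, beside 57.1% of all genes. The gluconeogenic enzyme gene Pck1 was lower in every L1-Tg pool by 0.46 (limma adjusted p = 0.518). Cpt1a and Irs2 were too, by 0.22 and 0.24 (limma adjusted p = 0.554 and 0.576). These 3 were without overlap (30.0%, beside 8.7% of all genes lower without overlap). Of 11 tested clock genes 7 were below 0 (63.6%), near the share of all genes. Arntl had the largest difference, 0.79 above WT with overlapping pools (limma adjusted p = 0.696). Per1 was lower by 0.65 (limma adjusted p = 0.289), Ciart by 0.65 (limma adjusted p = 0.403) and Tef by 0.29 (limma adjusted p = 0.561). These 3 clock genes were without overlap (27.3%, beside 8.7% of all genes lower without overlap). Immediate early genes were above 0 in 8 of 12 cases, beside 42.9% of all genes. Their summed scaled signal was 27.0 in L1-Tg 1 and 9.46 to 17.7 in the other pools, and without Jun and Klf6 it was 8.12 and 4.94 to 10.4. Their part in the values of the stress response genes was not tested. The 7 Kupffer cell genes on the array were all above 0 and 6 of 7 tested B and plasma cell genes were, beside 42.9% of all genes. Summed scaled signals overlapped between genotypes (11.5 to 17.7 in L1-Tg and 12.6 to 17.01 in WT liver for the B and plasma cell list). Sdc1, the tested gene of that list below 0, made up most of its sum, at 9.67 to 13.8 in L1-Tg and 11.4 to 14.5 in WT liver. The sum therefore says little of the other genes.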
